A study of Mus musculus with 8 samples.

Results

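The enzymes of glycogen metabolism were followed in nephron progenitor cells, the self-renewing cap mesenchyme of the embryonic mouse kidney from which nephron epithelium forms. The members are 9 genes named by function, out of 20254 in the deposited table: Gys1, Gbe1, Gyg and Ugp2 on the side of synthesis, Pgm1 and Pgm2 between glucose 6-phosphate and glucose 1-phosphate, Pygl and Pygb on the side of breakdown, and the regulator Ppp1r3c. All 9 members were found in the table and all 9 passed the filter on low values.

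Polyadenylated RNA was sequenced from cells sorted by green fluorescence from kidneys at embryonic day 17.5. All 8 libraries came from mice with the Six2EGFPcre transgene, in which EGFP and Cre recombinase are made where the progenitor factor Six2 is active. In the 4 control libraries the genotype was VHLNP+/- (heterozygous for loss of Vhl in nephron progenitors), and in the 4 mutant libraries it was VHLNP-/- (homozygous). Controls therefore also carried Cre and had lost 1 Vhl allele in these cells. Vhl encodes the part of a ubiquitin ligase that binds the oxygen-regulated alpha subunits of hypoxia-inducible factor. The labels give neither the sex nor the number of embryos per library and do not say whether replicates were separate litters, so p-values rest on the spread among these libraries alone, and that spread may be technical.

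Glycogen is a branched store of glucose. Phosphoglucomutase turns glucose 6-phosphate into glucose 1-phosphate, from which the pyrophosphorylase Ugp2 makes UDP-glucose. Glycogenin starts a chain, glycogen synthase lengthens it and the branching enzyme Gbe1 adds branches. Phosphorylase releases the glucose again, and targeting subunits bring protein phosphatase 1 to the particle, where it activates the synthase and turns off phosphorylase. Oxygen shortage is known to raise glycogen in many cell types, and tumours of the kidney that lack VHL are known for their glycogen-rich clear cells.

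Levels below are normalised reads, that is, reads per gene divided by a size factor for the library. Differences are log2 fold changes of mutants over controls, computed as log2(normalised reads + 1) and fitted with limma over 15381 genes, and a gene was called at a Benjamini-Hochberg adjusted p under 0.05. Total reads in genes ran from 37252683 to 46515762 per library, and the median log2 fold change of all tested genes was -0.01. Vhl, on chromosome 6, had 1134, 1379, 1208 and 1180 normalised reads in controls 1 to 4 and 320, 285, 331 and 336 in mutants 1 to 4, counted over the whole gene. The 10 markers of nephron progenitors summed to between 105575 and 115340 normalised reads in controls and between 103319 and 111667 in mutants; Six2 itself lay between 21553 and 28134 in controls and 21600 and 26992 in mutants. Of these 10, 3 fell (Meox1, Osr1 and Tmem100) and 1 rose (Gdnf), where 3.03% of all tested genes fell and 5.4% rose. The call of Osr1 was lost in 12 of 19 alternatives. Podocyte markers summed to 1375 to 7252 in controls and 949 to 2303 in mutants. Of the libraries that stand apart, Control 3 had the lowest sum of tubule markers (2246, against 3924 to 9457 in the mutants) and of ureteric bud markers (520). Control 1 had 3845 normalised reads of 5 hepatocyte markers, against 428 to 546 in the other controls and 142 to 628 in mutants. In sorted bulk cells, a change in the number of expressing cells and a change in RNA per cell cannot be told apart.

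The names of the phosphoglucomutases need care. The row named Pgm2 carries the Ensembl identifier ENSMUSG00000025791, which GENCODE M21 and RefSeq now call Pgm1, and the row named Pgm1 carries ENSMUSG00000029171, which both now call Pgm2. The names of the deposited table are kept here. Pgm2 of the table is the main phosphoglucomutase, whose human counterpart is PGM1, and Pgm1 of the table is the relative that is known to prefer pentose phosphates.

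Glycogen synthase, the branching enzyme, the main phosphoglucomutase and a phosphatase targeting subunit rose, and the phosphorylases among the members were not called. Of the 9 members, 4 rose (Pgm2, Ppp1r3c, Gys1 and Gbe1), where 5.4% of all tested genes rose and 8.43% were called in either direction. The number of members that fell was 0 by limma, against 3.03% of tested genes; at an unadjusted p under 0.05, 6 members lay higher and 1 lower, against 12.0% and 11.2% of tested genes. By role, 2 of 4 genes of synthesis, 1 of 2 phosphoglucomutases, 0 of 2 phosphorylases and the 1 regulator were called. At an unadjusted p under 0.05, 1 phosphorylase, Pygl, lay higher. The authors' deposited table called 5 members higher, with Pygl as the fifth, and 0 lower; it called 7.12% of its tested genes higher and 5.35% lower. In 5 members every mutant library lay above every control library, which was so for 8.54% of tested genes. In 0 members every mutant lay below every control, which was so for 6.72% of tested genes. The median log2 fold change of the members was 0.68. Members that share a pathway are not independent of each other, and their choice was made with earlier results of these data known.

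**Figure D1:**
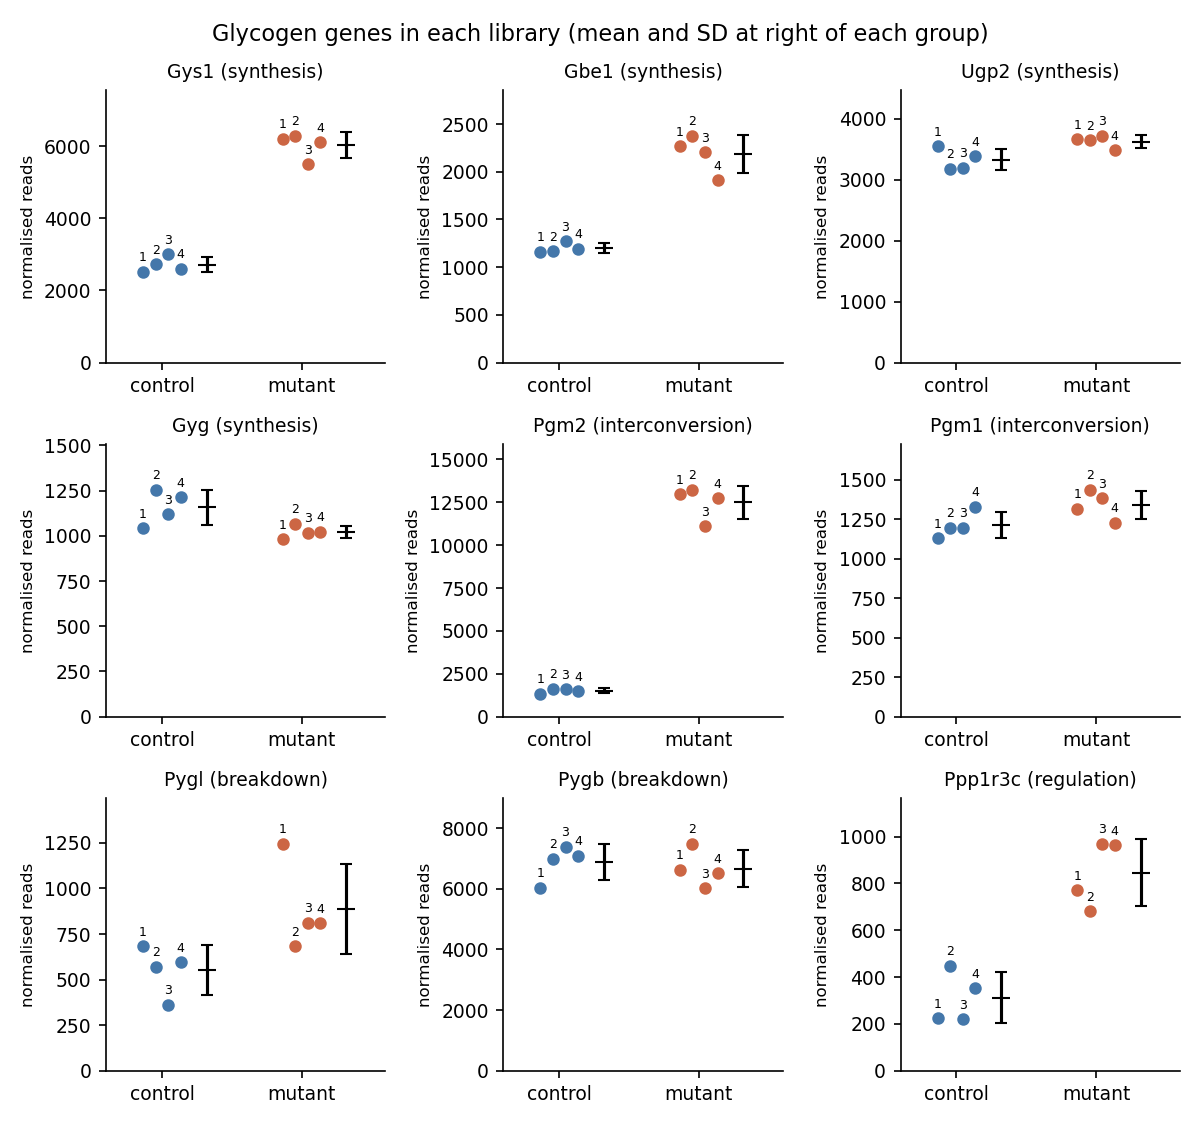
Normalised reads (vertical axes, each from 0) of the 9 members in the 4 control and 4 mutant libraries; numbers beside points are replicate numbers, and the bar at the right of each group is the mean and SD. Pgm2, Gys1, Gbe1 and Ppp1r3c separate into 2 levels, Pygl separates by the margin between 683.2 in Control 1 and 683.4 in Mutant 2, and the groups overlap for Ugp2, Gyg, Pgm1 and Pygb.

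The DNA just before the start of the genes that rose is shown because these genes were called in the same direction and the core site of hypoxia-inducible factor is short enough to be read by eye. The motifs searched were ACGTG and GCGTG, on both strands, in the 250 bases before each RefSeq start (GRCm38.p6). They are printed 5′ to 3′ along the gene's own strand, with matches in capitals (CACGT and CACGC where the match is on the other strand), and bases inside an annotated exon of any gene are left out. The stretch of Gys1 is chr7:45434710-45434838 on the plus strand, that of Gbe1 chr16:70313699-70313948 on the plus strand, that of Ppp1r3c chr19:36736654-36736854 on the minus strand, and that of Ugp2, which was not called, chr11:21371268-21371459 on the minus strand.
Gys1: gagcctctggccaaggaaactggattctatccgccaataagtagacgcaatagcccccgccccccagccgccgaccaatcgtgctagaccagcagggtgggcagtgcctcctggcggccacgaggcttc
Gbe1: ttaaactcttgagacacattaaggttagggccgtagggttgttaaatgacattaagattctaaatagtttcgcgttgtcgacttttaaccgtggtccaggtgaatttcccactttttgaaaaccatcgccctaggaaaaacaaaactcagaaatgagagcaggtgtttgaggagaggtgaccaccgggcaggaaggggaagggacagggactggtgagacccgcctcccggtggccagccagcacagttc
Ppp1r3c: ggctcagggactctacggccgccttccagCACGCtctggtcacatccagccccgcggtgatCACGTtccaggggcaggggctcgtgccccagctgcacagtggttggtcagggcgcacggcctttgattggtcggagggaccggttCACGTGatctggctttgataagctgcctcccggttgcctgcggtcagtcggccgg
Ugp2: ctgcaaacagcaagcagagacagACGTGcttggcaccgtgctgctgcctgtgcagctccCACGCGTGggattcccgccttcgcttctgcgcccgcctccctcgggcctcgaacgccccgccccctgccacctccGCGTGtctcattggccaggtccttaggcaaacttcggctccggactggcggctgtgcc
The whole window of Pgm2 lies inside exons annotated to Itgb3bp on the other strand, so only its matches, which begin 208 and 181 bases before the start, are shown with 8 bases on each side.
Pgm2 at chr4:99929235-99929255: gaatgtatACGTGacactcta
Pgm2 at chr4:99929262-99929282: tcacagtaACGTGctgaactc

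No match was found in the 250 bases of Gys1 or of Gbe1. The Ppp1r3c window began a match at 4 places. At the last pair of them, 104 and 103 bases before the start, the palindrome CACGTG holds ACGTG on both strands. Ugp2 has 2 RefSeq starts, and the window of the outer one is shown. That window began a match at 6 places, 4 of them in the printed stretch, where CACGCGTG holds overlapping matches to GCGTG. In the window of the inner start no match was found. Among the members that were not called, Gyg and Pgm1 had 1 place each and Pygl and Pygb 2 each. Of 14372 windows of tested genes, 53.8% held a match to either motif, 25.9% began one at 2 or more places and 11.1% at 3 or more. A match is a run of letters and no measure of binding, and the absence of one says only that these letters are not in this window.

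Pgm2, on chromosome 4 from 99929414 to 99987294 (GRCm38), showed the largest change among the members. Controls 1 to 4 had 1349, 1636, 1596 and 1484 normalised reads, and mutants 1 to 4 had 12957, 13226, 11090 and 12738. Every mutant library was several times above the highest control. The level rose 8.25-fold (95% interval 7.34 to 9.26), a log2 fold change of 3.04 (SE 0.08, limma adjusted p = 4.78e-10). Itgb3bp, whose exons overlap those of Pgm2 on the other strand, was at 558 ± 63.0 in controls and at 606 ± 55.1 in mutants (SD, n = 4 each; limma adjusted p = 0.516). The counter and its strand setting are unknown, and reads in the shared bases cannot be told apart. Whether this overlap contributed to the Pgm2 difference was not tested.

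Pgm1, on chromosome 5 from 64092950 to 64128351, was not called. Its values were 1129, 1195, 1195 and 1328 in controls and 1317, 1435, 1384 and 1228 in mutants, and the groups overlap. The ratio of mutants to controls was 1.11, with a 95% interval of 0.994 to 1.23 (adjusted p = 0.243). Per kilobase of exon, a scale that allows levels of different genes to be compared, the genes were alike in controls: 519 ± 44.0 for Pgm2 and 468 ± 32.2 for Pgm1 (SD, n = 4 each). In mutants they stood at 4280 ± 330 and 518 ± 34.6. Pgm2 thus made up between 49.8% and 54.8% of the reads per kilobase of this pair in controls, and between 87.7% and 90.2% in mutants.

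**Figure D2:**
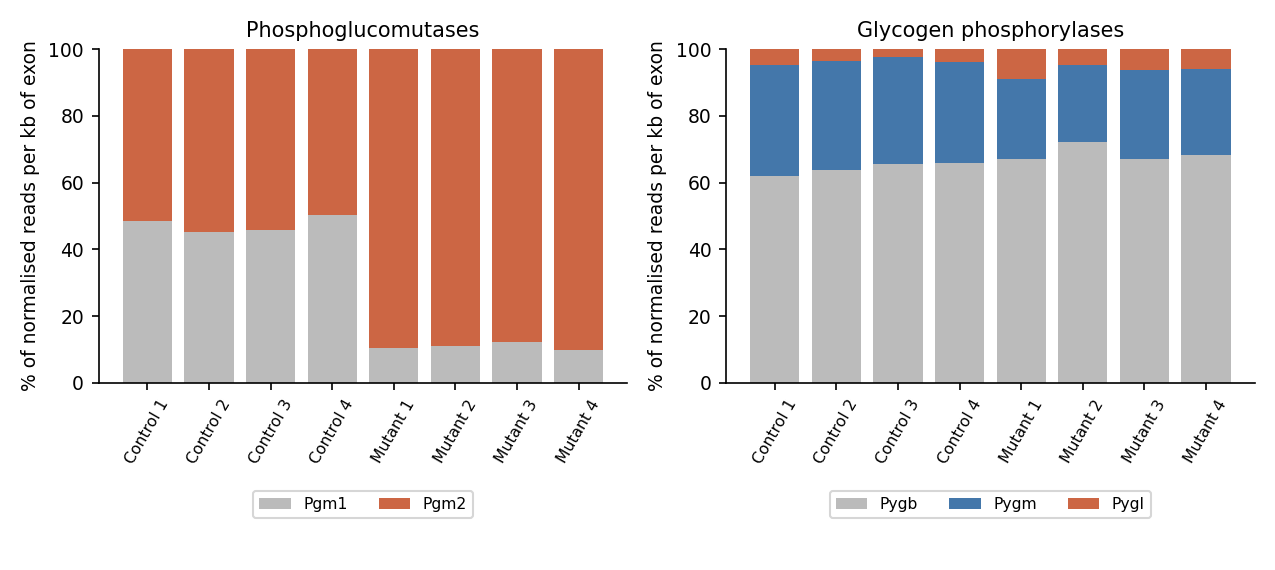
Share of normalised reads per kilobase of exon (vertical axis, %) taken by each phosphoglucomutase (left) and each glycogen phosphorylase (right) in each library. The Pgm2 share lies at 49.8% to 54.8% in controls and 87.7% to 90.2% in mutants, and the share of the muscle phosphorylase Pygm at 30.4% to 33.2% and 23.2% to 26.7%.

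Gys1, glycogen synthase of muscle and most other tissues, lies on chromosome 7 from 45434844 to 45456619. Controls 1 to 4 had 2524, 2729, 3002 and 2598 normalised reads and mutants 6201, 6282, 5495 and 6114. All mutants were above all controls, with a gap wider than the range of either group. It rose 2.22-fold (95% interval 2.0 to 2.46; log2 1.15, SE 0.07, adjusted p = 6.96e-07). Its exons overlap Ruvbl2 on the other strand, whose level was 5701 ± 399 in controls and in mutants reached 6032 ± 512 (SD, n = 4 each; limma adjusted p = 0.574). Gys2, the synthase of liver, had at most 8 reads in any library and was not tested.

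Gbe1, the branching enzyme, lies on chromosome 16 from 70313949 to 70569716, and no other annotated exon overlaps its exons. It had 1162, 1170, 1274 and 1192 normalised reads in controls 1 to 4 and 2266, 2376, 2204 and 1910 in mutants 1 to 4. The control values were close together and the lowest mutant value, in Mutant 4, was well above them. The rise was 1.82-fold (95% interval 1.63 to 2.03; log2 0.86, SE 0.07, adjusted p = 1.54e-05).

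The remaining members of synthesis showed small differences without a call. Ugp2, on chromosome 11 from 21321138 to 21371201, had 3546, 3180, 3194 and 3385 normalised reads in controls and 3659, 3643, 3717 and 3478 in mutants. Of its mutant libraries, 3 lay above every control. Its log2 fold change was 0.12 (95% interval 0.0 to 0.24, adjusted p = 0.197). Gyg, glycogenin, on chromosome 3 from 20122084 to 20155317, had 1042, 1254, 1119 and 1213 in controls and 980, 1066, 1016 and 1023 in mutants, so that 3 mutants lay below every control. Its log2 fold change was -0.18 (95% interval -0.33 to -0.02, adjusted p = 0.155), and among 19 alternatives it was called lower under library quality weights alone (adjusted p = 0.0177 with a log2 fold change of -0.22).

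Synthase and glycogenin, which meet in the same particle, differed more in level in mutants than in controls. Per kilobase of exon, Gys1 was at 1.15 ± 0.123 times Gyg in controls (range 1.05 to 1.31) and at 2.89 ± 0.185 times Gyg in mutants (range 2.65 to 3.10; SD, n = 4 each). Gys1 over Gbe1 was 2.53 ± 0.11 in controls, and 3.09 ± 0.341 was its value in mutants (SD, n = 4 each), with ranges of 2.43 to 2.63 and 2.79 to 3.58. Set against the sum of the 3 phosphorylases Pygl, Pygb and Pygm, Gys1 went from 0.255 ± 0.0113 to 0.624 ± 0.0151 (SD, n = 4 each), and these ranges too are apart. The ratios follow from values given here and were not tested.

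Ppp1r3c, which encodes the targeting subunit of protein phosphatase 1 known as PTG, lies on chromosome 19 from 36731731 to 36736653. Its values were 225, 448, 221 and 352 normalised reads in controls and 770, 681, 969 and 963 in mutants. The controls differed widely among themselves, and still the lowest mutant, Mutant 2, was above the highest control, Control 2. It rose 2.80-fold (95% interval 1.90 to 4.13; log2 1.49, SE 0.24, adjusted p = 0.00728). Leaving out any 1 library kept the call, with an adjusted p between 8.78e-04 and 0.0315.

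Pygl, the phosphorylase named for liver, on chromosome 12 from 70190811 to 70231488, lay higher in mutants without passing the threshold. Controls 1 to 4 had 683, 571, 362 and 595 normalised reads, and mutants 1 to 4 had 1245, 683, 813 and 809. The groups touch: the highest control had 683.2 and the lowest mutant 683.4. Mutant 1 stood above the other mutants and Control 3 below the other controls. The log2 fold change was 0.68 (SE 0.24, 95% interval 0.13 to 1.24, adjusted p = 0.139), and the authors' deposited table gives 0.68 with an adjusted p of 0.0121. With the replicate number as a block the adjusted p was 0.0368. Without Control 3 the log2 fold change was 0.49 and without Mutant 1 it was 0.51 (adjusted p = 0.173 for each).

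Markers of tubule and ureteric bud were lowest and highest in the same libraries as Pygl. The 7 tubule markers summed to 6425, 8126, 2246 and 7418 normalised reads in controls 1 to 4 and to 9457, 3924, 5665 and 4213 in mutants 1 to 4. The 6 ureteric bud markers summed to 2142, 1387, 520 and 2413 and to 2880, 1093, 1994 and 1973. Control 3, lowest for Pygl, was lowest for both, and Mutant 1, highest for Pygl, was highest for both. Among the libraries in between, the order was not kept throughout. For example, Control 2 had 8126 for tubule with 571 for Pygl, and Mutant 4 had 4213 with 809. By group the sums overlap, and limma called 0 of the 7 tubule and 0 of the 6 ureteric bud markers in either direction (at an unadjusted p under 0.05, 0 and 1, which was Wnt11; the authors' deposited table called 0 and 1). The 6 leukocyte markers summed to 459 to 886 in controls and 505 to 836 in mutants. Sums of leukocyte and of endothelium markers were also lowest in Control 3, but highest in Control 2. The sum of stroma markers was lowest in Mutant 2 and highest in Control 1. No gene of these lists was at 0 in all libraries. The part of other cells in the Pygl level was not tested.

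**Figure D3:**
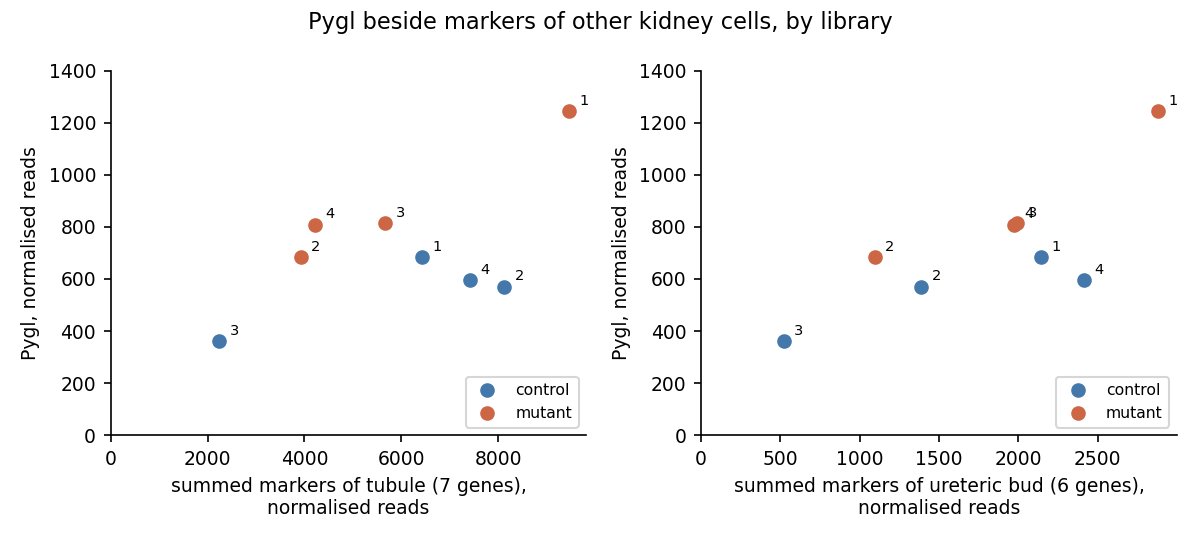
Pygl (vertical axes, normalised reads) against the summed markers of tubule (left) and ureteric bud (right, both in normalised reads) in each library; numbers are replicate numbers. Control 3 is lowest and Mutant 1 highest on all axes, and the marker sums of the groups overlap.

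Pygb, the phosphorylase named for brain, on chromosome 2 from 150786735 to 150831758, was the most abundant member per kilobase in controls and was not called. Its levels were 6037, 7002, 7391 and 7102 normalised reads in controls and 6634, 7487, 6017 and 6525 in mutants, with full overlap. The fold was 0.968 (95% interval 0.857 to 1.09, adjusted p = 0.783), so a rise of the size seen for Gys1 or Gbe1 lies outside its interval.

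Ordered by level per kilobase of exon in controls (means ± SD, n = 4 each), the members ran from Pygb at 1431 ± 122 and Ugp2 at 1084 ± 56.6 through Gys1 at 567 ± 43.9, Pgm2, Gyg at 494 ± 40.6 and Pgm1. Gbe1 followed at 224 ± 9.62, Ppp1r3c at 114 ± 40.1 and Pygl at 80.1 ± 19.7. From Gys1 to Pgm1, neighbours differed by no more than about their SDs, as did Ppp1r3c and Pygl. In mutants Pgm2 came first, and Pygb (1386 ± 127), Gys1 (1258 ± 74.9) and Ugp2 (1181 ± 33.4) formed a group in which neighbours lay within about 1 SD or 2 of each other. Pgm1 (518 ± 34.6), Gyg (436 ± 15.1), Gbe1 (409 ± 37.2), Ppp1r3c (310 ± 52.8) and Pygl (129 ± 35.6) followed, of which Gyg and Gbe1 lay within 1 SD of Gbe1 of each other. Exon lengths were taken from GENCODE M21 over all transcripts of a gene, which may not be those expressed here.

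The other genes of the pathway came from a list of 32, of which 30 could be tested. Of these, 6 rose, 1 fell and 23 were not called, where 5.4% and 3.03% of all tested genes rose and fell. With the 0.05 cut put on limma p-values before adjustment, the list counts were 9 (up in mutants) and 1 (down). That looser cut took in 12.0% of all tested genes as up and 11.2% as down. The median log2 fold change of the list was 0.04.

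On the side of breakdown, the third phosphorylase fell. Pygm, the phosphorylase named for muscle, had 2162, 2386, 2436 and 2196 normalised reads in controls and 1593, 1609, 1605 and 1658 in mutants, and every mutant was below every control. Its log2 fold change was -0.50 (SE 0.06; adjusted p = 1.86e-04). Gaa, the lysosomal glucosidase, was at 4384 ± 274 and 4057 ± 206 (SD, n = 4 each; limma adjusted p = 0.315). Of the 3 phosphorylases, Pygb went from 64.3% ± 1.76 of the reads per kilobase in controls to 68.6% ± 2.45 (SD, n = 4 each). Pygm went from 32.1% ± 1.19 to 25% ± 1.61 and Pygl from 3.65% ± 1.09 to 6.40% ± 1.75 (SD, n = 4 each). Pygm is also a marker of skeletal muscle. Of the other listed muscle markers, Acta1 averaged 92.3 ± 14.4 among control libraries and 104 ± 21.5 among mutant libraries (SD, n = 4 each). For Myl1 these means were 65.9 ± 15.4 and 96.5 ± 19.5, and for Actn2 17.9 ± 7.29 and 10.3 ± 4.11 (SD, n = 4 each). None of these was called. Ckm reached at most 19.4 and Myh3 at most 7.76 in any library. The part of muscle cells in the Pygm level was not tested.

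Phosphatase targeting subunits held the largest rise of the list. Ppp1r3g, a targeting subunit of the same family as Ppp1r3c, had 22.3, 41.2, 40.7 and 42.3 normalised reads in controls and 378, 403, 399 and 425 in mutants. It rose 11-fold (log2 3.46, SE 0.19, adjusted p = 4.18e-07). Ppp1r3b, the subunit best known from liver, was at 1282 ± 154 and 1919 ± 415 (SD, n = 4 each), a rise of 0.57 on the log2 scale with an adjusted p of 0.0373. That call was lost in 9 of 19 alternatives. It did not hold when Control 1, Control 3, Control 4, Mutant 2 or else Mutant 4 was left out, with an adjusted p up to 0.102. Nor did it hold without Control 2 and Mutant 2 together (adjusted p = 0.0535) or without Control 3 and Mutant 2 (0.0989). It was also lost with the replicate block (adjusted p = 0.11) and with the deposited values used without correction (0.0666). Ppp1r3d, Ppp1r3e and Ppp1r3f were not called, nor were the catalytic subunits Ppp1ca, Ppp1cb and Ppp1cc. Ppp1r3a, known from muscle, had at most 7 reads in a library and was not tested. Per kilobase, Ppp1r3c and Ppp1r3b were at like levels in mutants (310 ± 52.8 and 309 ± 66.7), and Ppp1r3g was at 149 ± 7.22 (SD, n = 4 each).

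Of the genes that control phosphorylase and the particle, Phka1 and Epm2a rose. Phka1, a regulatory subunit of phosphorylase kinase, went from 935 ± 21.3 to 1161 ± 49.1 (SD, n = 4 each; log2 0.31, adjusted p = 0.00619). The call was lost without Control 2 and Mutant 2 together (adjusted p = 0.0588) and with the deposited values used without correction (0.104). Epm2a, the glycogen phosphatase laforin, had 111, 124, 134 and 108 normalised reads in controls and 284, 213, 245 and 225 in mutants, and rose 2.02-fold (adjusted p = 4.74e-04). Its partner malin, the ubiquitin ligase encoded by Nhlrc1, was at 275 ± 32 and 255 ± 12.3 (SD, n = 4 each; limma adjusted p = 0.617). The synthase kinases Gsk3a and Gsk3b had log2 fold changes of -0.05 and 0.04 and were not called.

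Slc37a4, which carries glucose 6-phosphate into the endoplasmic reticulum, rose, and neither gene for glucose 6-phosphatase was called. It had 996, 1120, 1026 and 1087 normalised reads in controls and 2698, 2784, 2586 and 2857 in mutants, a rise of 2.58-fold (log2 1.37, SE 0.06, adjusted p = 4.07e-08). The liver and kidney glucose 6-phosphatase gene G6pc had between 1 and 21 reads in each library and was not called (adjusted p = 0.425). The ubiquitous G6pc3 was at 1368 ± 46.6 and 1406 ± 107 (SD, n = 4 each; limma adjusted p = 0.789).

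**Figure D4:**
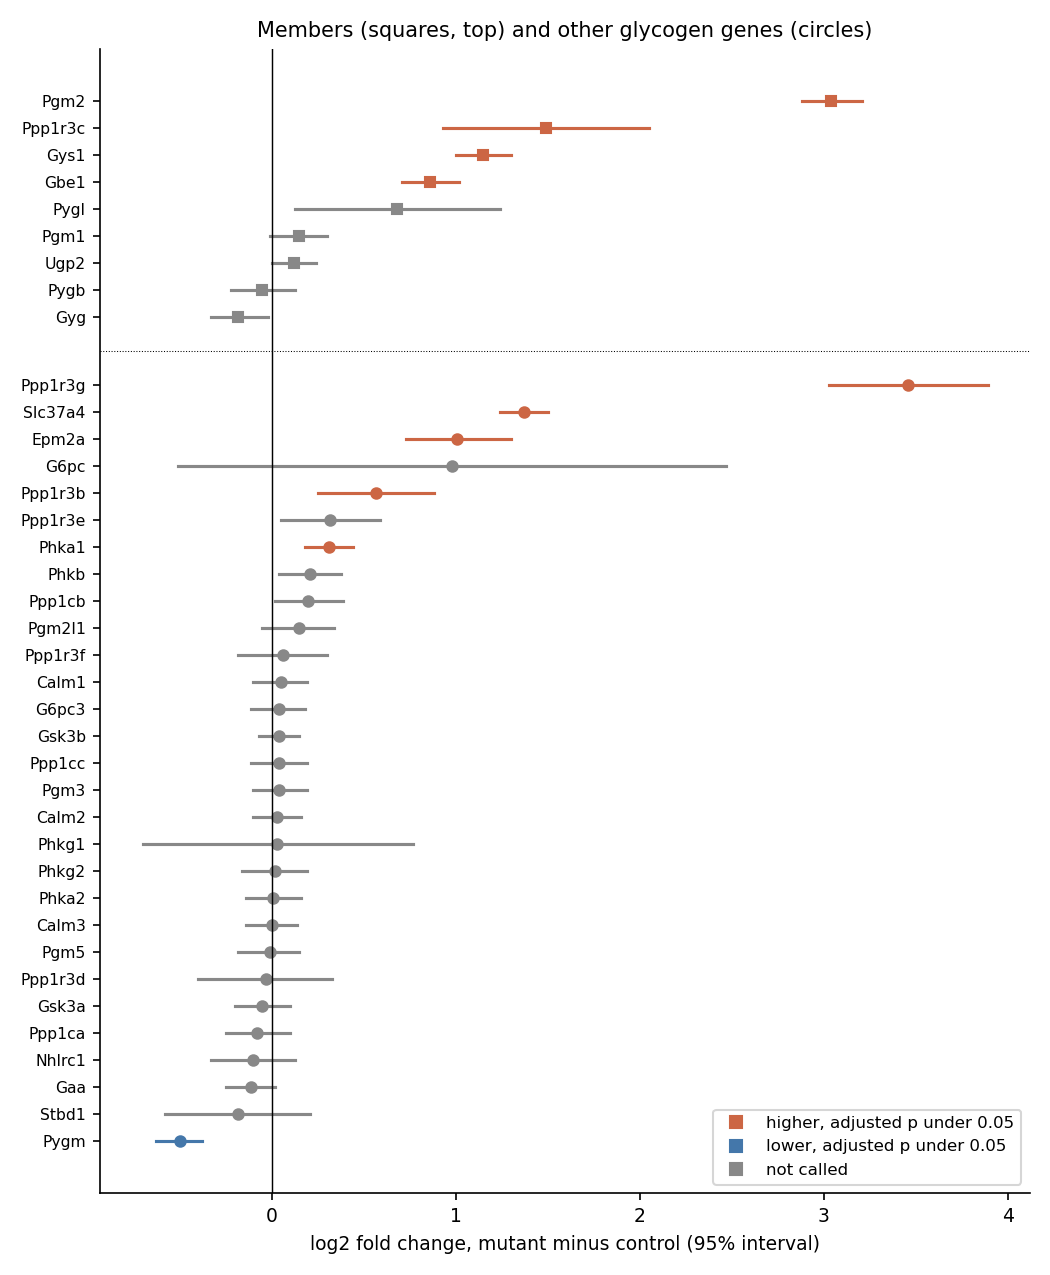
Log2 fold changes, mutant minus control (horizontal axis), with 95% intervals from limma for the 9 members (squares) and tested genes of the other glycogen list (circles); colour shows the call. Pgm2 at 3.04 and Ppp1r3g at 3.46 lie farthest to the right, Pygm at -0.50 is the called gene on the left, and most of the rest cluster around 0.

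Genes with the most similar pattern were found by the root mean square difference of log2 values, centred on the control mean, over the 8 libraries and 12219 other genes. Nearest to Gys1 were Shmt2 (0.034), Jmjd6 (0.064) and Inafm2 (0.072). Nearest to Pgm2 were the copper transporter Atp7b (0.101) and the glycolytic genes Pfkfb3 (0.139) and Aldoc (0.169). Ppp1r3c, which varied more among controls, had Slc35f3 (0.143), Tnfsf9 (0.254) and H2-K1 (0.255) as its nearest. The measure describes values in these libraries and is set mostly by the fold change.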

How the data were processed

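RNA sequencing was done on sorted cells, 4 control and 4 mutant libraries, grouped by title. Per the submitters' processing notes, STAR 2.5.3a, DESeq2 1.18.1 and mm10 were used; counter, annotation and strand setting: not given in the sources used here. Each deposited signal value is reads divided by size factors, then divided again by the same factors recycled down the rows and rounded; undoing this rebuilt the deposited mean of 20254 of 20254 genes within a relative tolerance of 1e-09. The authors' deposited log2 fold changes and p-values served as an alternative, and their test score was not used.

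The 15381 genes that reached 10 normalised reads in 4 or more libraries were fitted with limma 3.58.1 in R 4.3.3, with variance trend and robust moderation, no covariate, pseudocount 1, two-sided p-values and Benjamini-Hochberg adjustment over all tested genes. Depth was 37252683 to 46515762 reads per library, so precision is limited mainly by the spread between libraries. Members and lists were chosen with earlier results of these data known. The text names all members, the called genes of the other list with isoform partners, Vhl, cell markers, and per role the 3 genes most like the called member of largest change; Ruvbl2, Itgb3bp and some uncalled list genes were named after their values were seen, and some genes are not reported here. Alternatives covered pseudocount, filter, normalisation, weights, replicate block and libraries left out.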

Additional observations from a re-analysis of the deposited data

Results flagged for a closer look

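Among 78 groups of 4 libraries (9 members and 30 other glycogen genes, controls and mutants apart), 3 had 1 library far from the other 3; about 1 in 20 such groups is set apart in this way by chance. Ppp1r3g had 22.3 normalised reads in Control 1, against 40.7 to 42.3 in the other controls. Ppp1r3f had 305 in Mutant 1, against 382 to 396 in the other mutants. Ppp1ca had 12523 in Control 1, against 14426 to 14681 in the other controls. None of these was a member, and the Ppp1r3g call held without Control 1.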

How the results depend on the processing

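The calls of Pgm2, Gys1, Gbe1 and Ppp1r3c held under each of 19 alternatives, and members called higher numbered 4 to 5, the fifth being Pygl with the replicate block and in the authors' deposited table. Members called lower numbered 1 (Gyg) with library quality weights and 0 otherwise. Other glycogen genes called higher numbered 4 to 8, and 1 (Pygm) was called lower throughout. All genes called numbered 1297, against 697 on the deposited values without correction, 2996 with library quality weights, 766 with the replicate block, 637 without Control 2 and Mutant 2, 743 without Control 3 and Mutant 2, and 749 (without Mutant 4) to 1572 (without Control 1) when 1 library was left out. The cause of these shifts was not tested. Where libraries were left out, the fit also had fewer samples. Same-numbered libraries shared a number by label only: their deviations from the group means correlated at 0.213, -0.143, -0.144 and 0.063 for numbers 1 to 4 across genes, and the highest value was between Control 3 and Mutant 2 (0.57). The block ended the call of Ppp1r3b (adjusted p = 0.11) and, among progenitor markers, of Osr1 (0.0961), gave Pygl one (0.0368), and changed no other call of a named glycogen gene. Phkb was called higher with library quality weights and without Control 1 (adjusted p = 0.0149 and 0.0393), and Ppp1r3e with the weights (0.0229). The 2 count models planned on recovered reads were not run. On these reads limma-voom called 1297 genes and the same number of members.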
